A study of Mus musculus with 6 samples.

Results

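The nuclear genes for the subunits of respiratory complexes II, III and IV, of cytochrome c and of ATP synthase (complex V) were followed in B16-BL6 cells, an invasive line of the mouse B16 melanoma. Members were taken by symbol: Sdha to Sdhd, Cyc1, Cycs, Atpif1, and every symbol that starts with Uqcr, with Cox4 to Cox8 or with Atp5, without predicted genes and pseudogenes. This gave 49 of the 22535 rows of the table: 4 for complex II, 9 for complex III, 1 for cytochrome c, 18 for complex IV with its tissue-restricted isoforms, and 17 for complex V with its inhibitor. Polyadenylated RNA was sequenced from 3 libraries with the genotype sgControl and 3 with the genotype sgNDUFS4, where sg stands for a CRISPR guide RNA and Ndufs4 encodes an accessory subunit of complex I. All 6 libraries came from B16-BL6 cells kept in DMEM with serum and pyruvate and had no other treatment on their labels. The study made the comparison to look for transcriptional changes behind the immunogenicity of the cells with the Ndufs4 guide. Neither whether a genotype is a clone or a pool nor whether the replicates are separate cultures is stated, so p-values here reflect no more than the scatter among these 6 libraries, part of which can be technical.

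Complex II is succinate dehydrogenase, which passes electrons from succinate to coenzyme Q and is encoded wholly in the nucleus. Complex III takes electrons from coenzyme Q to cytochrome c, and complex IV takes them from cytochrome c to oxygen. Both are built around mitochondrially encoded cores to which nuclear subunits are added, and both pump protons. ATP synthase lets the protons back in through a ring of c subunits, whose rotation turns the central stalk inside the catalytic F1 head, while a peripheral stalk holds the head still.

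Sequencing depth, as reads assigned to genes, ran from 20090607 to 25947374 per library. Expression is given in CPM, the reads of a gene scaled to the same total in each library, and 3 reads correspond to between 0.116 and 0.149 CPM in a library. Where values of the groups are set against each other, those of sgControl come first. The targeted gene Ndufs4 had 54.30, 55.05 and 52.39 CPM with the control guide. In sgNDUFS4 it stood at 14.99, 15.98 and 16.84 CPM, a log2 change of -1.73 (SE 0.0764, adjusted p = 5.9e-16 by limma). All 9 melanocyte markers looked at were expressed, and 6 were lower, 2 higher and 1 did not pass, beside 20.3% lower and 31.8% higher of all genes tested. Tyr, the tyrosinase that starts melanin synthesis, was lowest at a log2 fold change of -3.19, with Trpm1, Mlana, Dct, Tyrp1 and Sox10 between -0.61 and -0.12, while Pmel and Mitf were higher at 0.34 and 0.16. Set against its 50 nearest tested neighbours on the chromosome, Sox10 was higher (0.11). All 5 T cell and all 4 endothelial markers were at 0 in every library, 5 macrophage markers together reached between 5.09 and 13.9 CPM, and 7 fibroblast markers together between 57.8 and 72.9 CPM. Of the latter, Dcn, Lum and Thy1 were at 0, Col1a1 and Col1a2 did not pass, and Pdgfrb rose from 18.8, 18.4 and 19.6 CPM to 27.7, 30.5 and 32.3 CPM (0.65). The part of other cells in the results was not tested. In bulk RNA, a lower level per cell and fewer cells with a transcript cannot be told apart.

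Of the 42 subunit genes whose mean reached 1 CPM, 20 were higher in sgNDUFS4, 3 were lower and 19 did not pass the test (limma, adjusted p of 0.05 or less). Over all 11063 genes tested, 31.8% were higher and 20.3% lower, 52.0% in all, so that, both directions together, the members were called about as often as other genes. The median log2 fold change of the 42 members was 0.09, beside 0.06 over all genes tested. Rises ran from 0.10 to 0.48 on the log2 scale, and apart from Cox7b no member moved further than that. The groups did not overlap in 24 members, 20 of them higher and 4 lower, beside 57.2% of all genes tested, 35.0% higher and 22.2% lower. Complex II had 2 higher and 0 lower of 4, complex III 5 and 1 of 9, complex IV 6 and 1 of the 11 tested, and complex V 7 and 1 of 17. The median of all genes depends on the scaling: with TMM factors it moved from 0.06 to 0.00, and 16 members were then higher and 8 lower, beside 24.8% and 25.9% of all genes, 50.7% together. edgeR on reads recovered from the CPM values gave the same member counts, beside 24.6% higher and 25.9% lower of all genes, 50.5% together. Of the 20 higher members, 15 kept the call under each of 16 other settings, and so did Cyc1 and Cox7b among the 3 lower. These 16 do not include regional centring, taken up next, after which 7 of the 15 and Cyc1 did not pass.

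**Figure D1:**
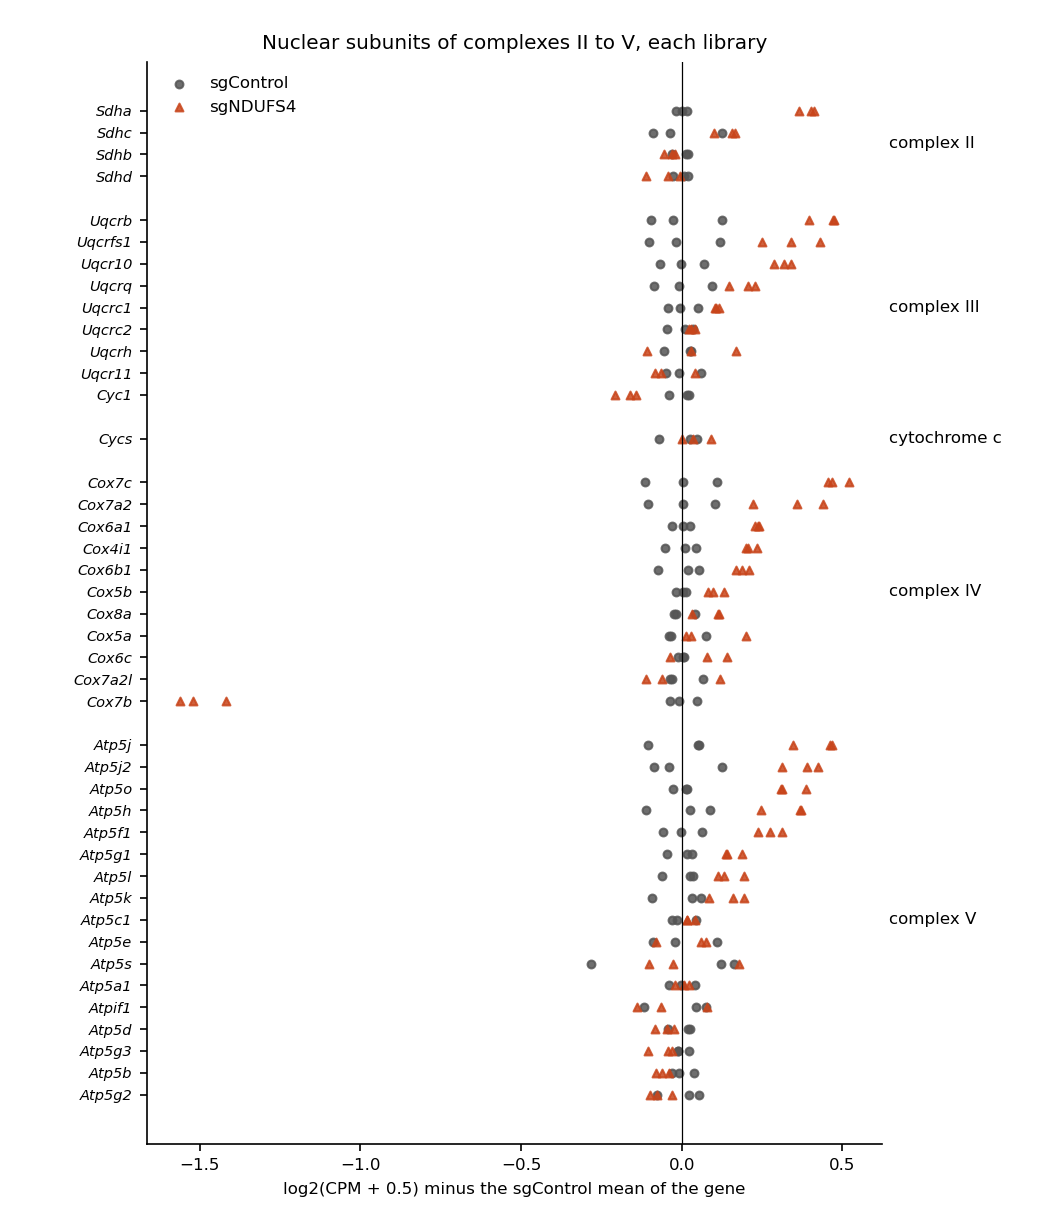
Expression of the 42 tested subunit genes in each library, as log2(CPM + 0.5) minus the mean of the 3 sgControl libraries (grey circles), with sgNDUFS4 libraries as orange triangles. Cox7b lies far to the left of every other gene, and the genes called higher have log2 fold changes between 0.10 and 0.48.

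Of the 49 members, 6 lie in 3 stretches of the genome in which most expressed genes shifted together, as earlier results on these libraries had shown. In the raised stretch of chromosome 13, with 335 tested genes and a median log2 fold change of 0.40, lie Sdha, Uqcrfs1, Uqcrb and Cox7c. Atp5f1 lies in a raised stretch of chromosome 3 (417 genes, median 0.32), and Cox7b in a lowered stretch of chromosome X (223 genes, median -0.84). All 6 were called, 5 higher and 1 lower. When each gene was set against the median of its 50 nearest tested neighbours, the 5 raised members came to between -0.07 and 0.06 and none passed the test. Outside these stretches 15 of 36 tested members were higher and 2 lower, beside 31.8% and 20.3% of all genes tested, those in the stretches included. With this regional centring over the whole set, 13 members were higher and 5 lower, beside 21.6% and 21.9% of all genes, 43.5% together. Of those, 10 were higher before and after centring: Uqcr10, Cox4i1, Cox5b, Cox6a1, Cox7a2, Atp5o, Atp5h, Atp5j, Atp5g1 and Atp5j2. Cox7b was the only member lower both before and after.

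**Figure D2:**
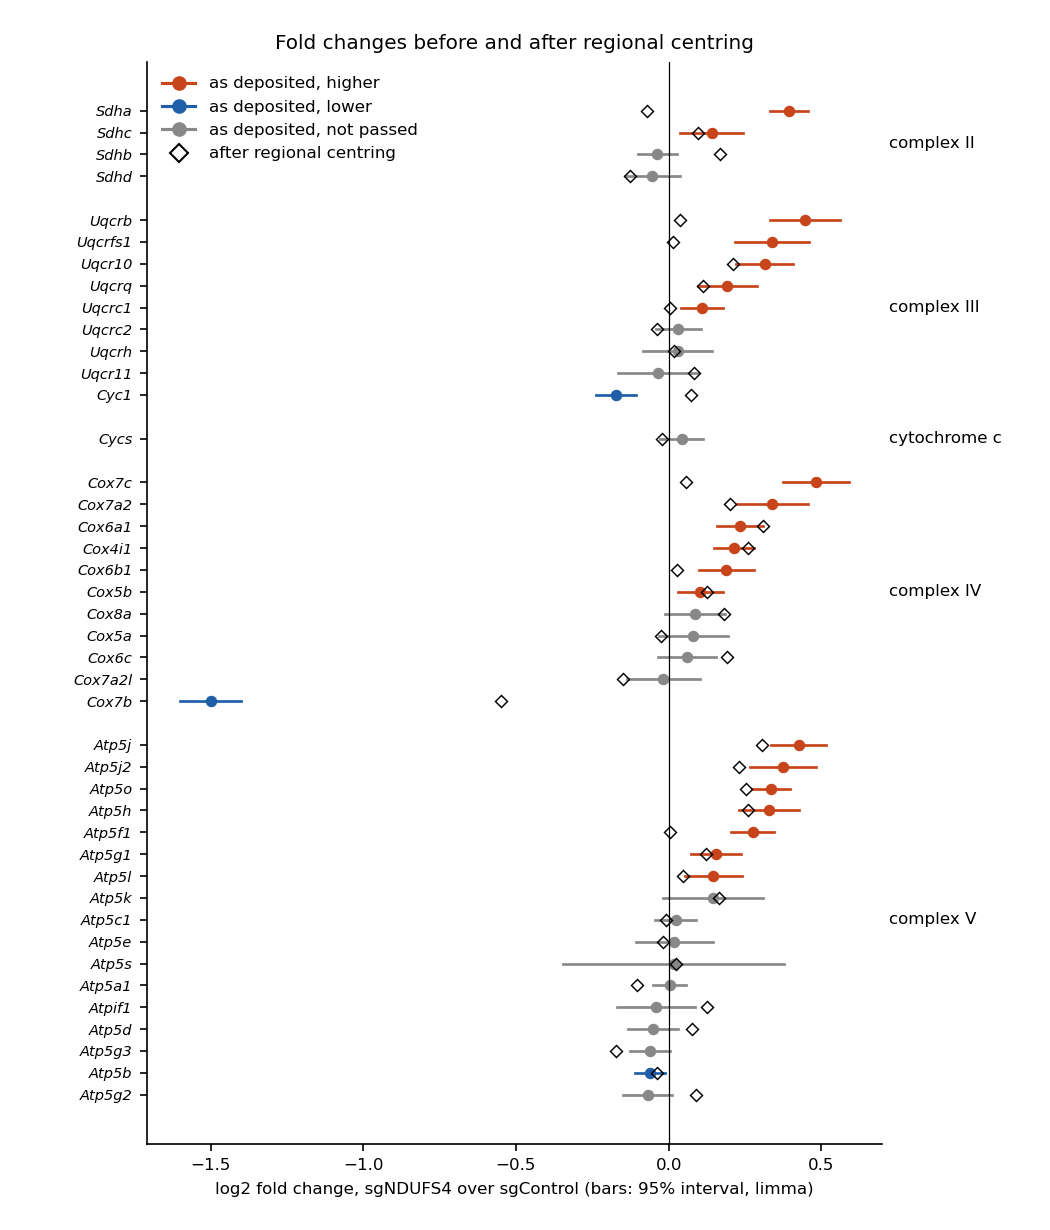
log2 fold change of each tested member, sgNDUFS4 over sgControl, with its 95% interval (filled circles, coloured by call), and the same gene after subtracting the median of its 50 nearest tested neighbours (open diamonds). The diamonds of Sdha, Uqcrfs1, Uqcrb, Cox7c and Atp5f1 lie between -0.07 and 0.06, and that of Cox7b lies at -0.55.

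In complex II the flavoprotein and a membrane anchor were higher, and the iron-sulfur subunit and the other anchor did not pass. Sdha (ENSMUSG00000021577.14, chr13:74322254-74350280, minus strand, GRCm38) carries the FAD that oxidises succinate. It was at 389, 394 and 398 CPM in sgControl against 519.8, 508 and 524 CPM in sgNDUFS4. Every sgNDUFS4 library was above every sgControl library, with a log2 fold change of 0.39 (SE 0.0301, adjusted p = 3.8e-11) and -0.07 after regional centring. Sdhb, which passes the electrons on through iron-sulfur clusters, was at 376, 388 and 387 CPM against 375, 369 and 378 CPM, which overlap (log2 fold change -0.04, 95% interval -0.10 to 0.03). Its direction turned with the setting: it was lower with TMM scaling (-0.10, adjusted p = 0.014), edgeR and DESeq2, and higher after regional centring (0.17, adjusted p = 8e-04). The anchors Sdhc and Sdhd hold the coenzyme Q site and heme. Sdhc was at 104, 107 and 120.3 CPM in sgControl against 123, 118 and 124 CPM in sgNDUFS4, a rise of 0.14 (adjusted p = 0.021) whose groups overlap in 1 sgControl library and which lost its call under 10 of 16 other settings. Among these were leaving out sgControl 1 or 2, or sgNDUFS4 1 or 3, which gave between 0.10 and 0.13. Sdhd had 127, 126 and 123 CPM against 125, 121 and 116 CPM (log2 fold change -0.05, adjusted p = 0.31), and was lower with TMM scaling (-0.11, adjusted p = 0.035), edgeR, DESeq2 and centring.

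In complex III the members that carry electrons moved in opposite directions before regional centring. Cyc1 (ENSMUSG00000022551.8, chr15:76343523-76346260, plus strand), which is cytochrome c1, was at 442, 444 and 425 CPM in sgControl against 391, 395 and 378 CPM in sgNDUFS4. The groups did not overlap, and the log2 fold change was -0.17 (SE 0.0318, adjusted p = 7e-05). After regional centring it was 0.07, the median of its 50 neighbours being -0.24. The Rieske iron-sulfur protein Uqcrfs1 (chr13:30540308-30545362) rose from 74.4, 67.6 and 63.7 CPM to 81.5, 92.3 and 86.7 CPM, a log2 fold change of 0.34 (SE 0.0588, adjusted p = 2.8e-05). Uqcrfs1 was at 0.01 after centring, where neither it nor Cyc1 passed. A test of the difference between these 2 genes was not made.

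The supernumerary subunits and core proteins of complex III were higher or did not pass. Uqcrb, which lies near the coenzyme Q site, was at 64.1, 67.1 and 74.7 CPM in sgControl against 90.4, 95.1 and 95.2 CPM in sgNDUFS4, the largest rise of the complex at 0.45 (SE 0.0555, adjusted p = 2.2e-07), and was at 0.04 after centring. For it 3 pseudogenes of at least 95% identity to its coding sequence exist, and how reads that match several places were counted is not given in the sources used here. Uqcr10, a small subunit, was at 103, 108 and 114 CPM against 135, 137 and 132 CPM. Its groups were well apart, with a log2 fold change of 0.31 (SE 0.0449, adjusted p = 1.9e-06) and 0.21 after centring, still past the test. Uqcrq and the core protein Uqcrc1 were higher by 0.19 and 0.11, and Uqcrc1 lost its call under 5 of 16 other settings, among them without sgControl 2 (0.09, adjusted p = 0.052). The core protein Uqcrc2 (231, 221 and 235 CPM against 232, 234 and 236 CPM) and the hinge protein Uqcrh (101, 107 and 107 CPM against 97.2, 107 and 118 CPM) did not pass, nor did Uqcr11. Each of these 3 had overlapping groups. Cycs, the mobile carrier between complexes III and IV, was at 398, 431 and 425 CPM in sgControl against 445, 417 and 428 CPM in sgNDUFS4. Its log2 fold change was 0.04 with a 95% interval of -0.03 to 0.11. The predicted gene Gm10053 has a coding sequence identical to that of Cycs and was listed at 51.4 to 59.0 CPM, so reads between them are uncertain.

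Complex IV held the widest spread. Cox7b, a small subunit that completes the enzyme late in its assembly, was at 166, 176 and 169 CPM in sgControl against 59.0, 57.4 and 63.4 CPM in sgNDUFS4. The sgNDUFS4 libraries were all far below the sgControl libraries, at 0.352 of their mean. The log2 fold change was -1.50 (SE 0.0483, adjusted p = 6.5e-19), and ranked 107th from the lowest of 11063 genes. Cox7b (ENSMUSG00000031231.4, chrX:106015700-106022450, plus strand) is the only member on the lowered stretch of chromosome X. No other tested member was below -0.17.

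Its neighbours were lower too. Of the tested genes nearest to it, Atrx, a chromatin remodeller, was at -1.72, Magt1, a magnesium transporter, at -1.71, Atp7a, a copper transporter, at -1.35, and Pgk1, the glycolytic phosphoglycerate kinase, at -1.31, all on the log2 scale. The tested gene after Pgk1, Fndc3c1, was at -0.13. Zdhhc15, at a distance of -1.42 Mb, was at a mean of 16.5 CPM in sgControl and had 0 reads in each sgNDUFS4 library. Of the 223 tested genes of the stretch, 215 had a value below 0, and 13 were lower than Cox7b. After regional centring Cox7b stayed lower, at -0.55 (adjusted p = 5.3e-09).

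**Figure D3:**
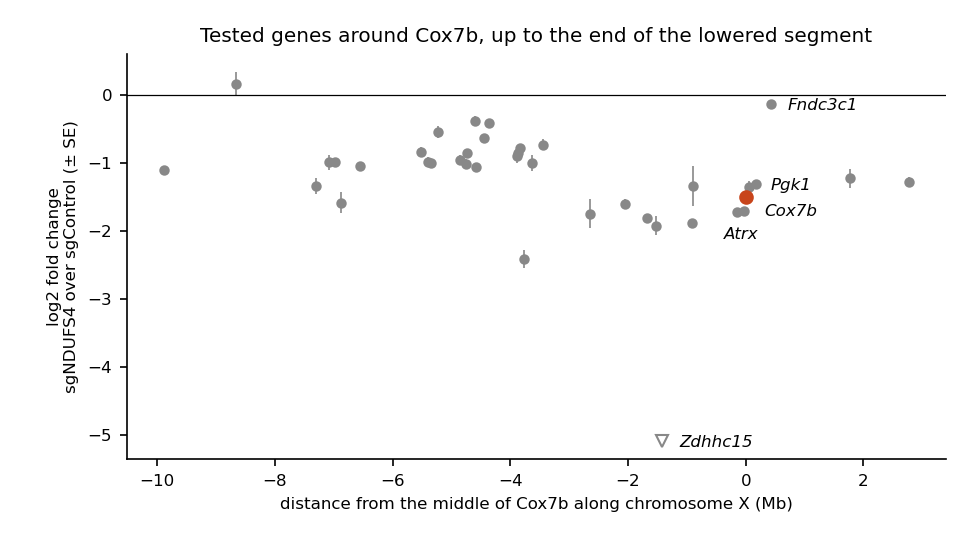
log2 fold change with its SE of the tested genes within 10 Mb of Cox7b (orange) up to the end of the lowered stretch, by distance from the middle of Cox7b. The open triangle is Zdhhc15, with 0 reads in each sgNDUFS4 library, whose fitted value depends on the pseudocount; Cox7b at -1.50 lies among Atrx, Magt1, Atp7a and Pgk1, between -1.72 and -1.31.

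Against its partners in the enzyme, Cox7b went from the middle of the range to its bottom. Per kb of transcript, it stood at 166, 176 and 169 CPM in the sgControl libraries, where the median of the 9 other common nuclear subunits was 165, 167 and 168. It ranked 5th of 10 in each of these libraries. In sgNDUFS4 it stood at 59.0, 57.4 and 63.4 CPM per kb against medians of 205, 213 and 204, and ranked 10th of 10 in each. With the union of all exons as the length it ranked 8th of 10 in each sgNDUFS4 library, with Cox6c lowest, so the last place depends on the length used. Cox7b has 2 pseudogenes of at least 95% identity, and its isoform Cox7b2 had 0 reads in every library.

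**Figure D4:**
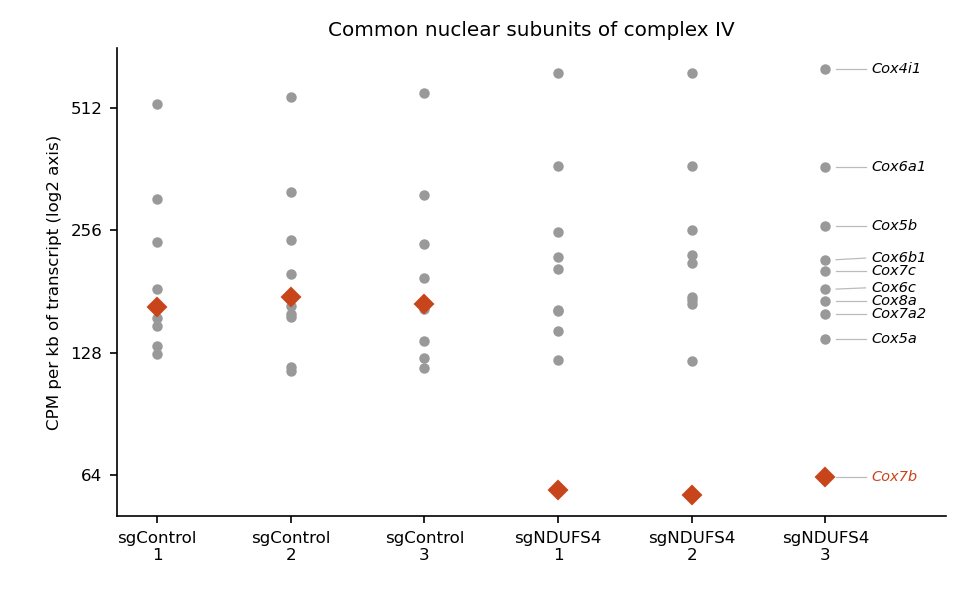
Level of the 10 common nuclear subunits of complex IV in each library, in CPM per kb of transcript on a log2 axis, with Cox7b as orange diamonds and gene names beside the last library. Cox7b is 5th of 10 in each sgControl library, and at 57.4 to 63.4 CPM per kb it is below all 9 others in each sgNDUFS4 library.

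Of the other common subunits of complex IV, 6 were higher and 3 did not pass. Cox7c was at 80.3, 86.4 and 73.9 CPM in sgControl against 111, 115 and 110.0 CPM in sgNDUFS4, the largest rise of all members at 0.48 (SE 0.0526, adjusted p = 2.7e-08), and was at 0.06 after centring. A pseudogene with an identical coding sequence exists for it. Cox4i1, which carries a site where ATP tunes the enzyme, was at 399.6, 418 and 427 CPM against 478, 476 and 488 CPM, a rise of 0.21 (SE 0.0317, adjusted p = 3.4e-06). Cox6a1 was at 175, 182 and 179 CPM against 211, 211 and 209 CPM, a rise of 0.23 (SE 0.0367, adjusted p = 6.9e-06). The groups of these 3 genes did not overlap, and the rises of Cox4i1 and Cox6a1 were 0.26 and 0.31 after centring. Cox7a2 was higher by 0.34, Cox6b1 by 0.19 and Cox5b by 0.10. Cox5b lost its call under 5 of 16 other settings, among them without sgNDUFS4 3 (0.09, adjusted p = 0.073). The predicted gene Gm11273 has 99.2% identity to the coding sequence of Cox5b and was listed at 22.2 to 29.1 CPM, so reads between them are uncertain. Cox6c had 122, 123 and 124 CPM against 119.8, 130.0 and 136 CPM, and Cox8a 86.0, 86.5 and 90.1 CPM against 89.6, 94.8 and 94.6 CPM. These 2 and Cox5a did not pass, with values of 0.06, 0.09 and 0.08.

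The tissue-restricted isoforms of complex IV were at or near 0. Cox4i2, Cox6b2, Cox7b2, Cox8b and Cox8c had 0 reads in all 6 libraries. Cox6a2, the heart and muscle form of subunit 6a, had 1 read over the sgControl libraries and 4 over the sgNDUFS4 libraries, and Cox7a1, the muscle form of subunit 7a, had 7 and 6. Both are at or under 3 reads in each library, so no fold was taken. The mRNA counted for the subunit 7a family thus came nearly all from Cox7a2 and Cox7a2l. The latter is also known as SCAF1, a supercomplex factor named for joining complexes III and IV. Whether its protein does so in these cells, and which proteins make up subunit 7a, was not tested. Per kb, Cox7a2 made up 66.4%, 63.3% and 63.3% of the family in sgControl and 68.8%, 72.6% and 68.1% in sgNDUFS4. Cox7a2l was at 75.8, 75.5 and 81.0 CPM against 74.1, 71.6 and 84.1 CPM, with overlapping groups and a log2 fold change of -0.02 (95% interval -0.14 to 0.10).

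Promoter sequences were looked at in members that moved in opposite directions. RefSeq holds a window from 250 bases before to 50 after the start for 38 of the 49 members, 41 windows in all. The letters TACANNTCC, part of the element bound by ZNF143, occurred on either strand in 7 of these 41 windows (17.1%). They occurred in 4.43% of all 32851 windows and in 4.84% of the 21263 windows of protein-coding genes. The 2 windows of Atp5d overlap and hold the same site, so the 7 windows belong to 6 of the 38 members (15.8%). The letters were chosen after the sequences had been seen. They stand before the starts of Cox7b, the member with the deepest fall, of Cox7c, with the largest rise, of Uqcr10 and of Atp5o, which are shown here with those letters in capitals, 5′ to 3′ on the strand of the gene. Each stretch lies outside the annotated span of its gene.
Cox7b, chrX:106015550-106015699, plus strand: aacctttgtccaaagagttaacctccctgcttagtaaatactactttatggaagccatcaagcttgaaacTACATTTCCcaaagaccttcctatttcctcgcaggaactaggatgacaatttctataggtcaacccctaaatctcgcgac
Cox7c, chr13:86046905-86047045, minus strand: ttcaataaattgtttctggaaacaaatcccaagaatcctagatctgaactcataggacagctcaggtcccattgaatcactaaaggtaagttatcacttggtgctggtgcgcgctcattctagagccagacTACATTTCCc
Uqcr10, chr11:4704345-4704494, minus strand: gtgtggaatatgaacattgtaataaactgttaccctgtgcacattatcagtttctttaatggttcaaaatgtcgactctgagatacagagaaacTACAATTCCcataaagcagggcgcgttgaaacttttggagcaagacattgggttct
Atp5o, chr16:91931688-91931837, minus strand: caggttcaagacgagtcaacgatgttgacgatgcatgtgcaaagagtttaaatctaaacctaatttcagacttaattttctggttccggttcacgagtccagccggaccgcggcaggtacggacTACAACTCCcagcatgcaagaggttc

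The letters begin 80 bases before the RefSeq start of Cox7b, which fell, and 119 before that of Cox7c, which rose. For Cox7c the RefSeq start lies inside the annotated span of the gene, so these distances are not from like starts. The letters GCATGCGC, the core bound by NRF1, a factor known for nuclear genes of the respiratory chain, occurred on either strand in 8 of the 41 member windows (19.5%), in 2.71% of all windows and in 3.52% of those of protein-coding genes. The letters CCGGAAG, bound by ETS factors such as GABP, occurred in 12 (29.3%), 8.86% and 11.6% of these, and AAGATGGC, bound by YY1, in 3 (7.32%), 2.75% and 3.05%. By call, NRF1 letters were in 3 of the 16 higher members with a window and in 5 of the 16 that did not pass. ETS letters were in 5 and 7 of them, YY1 letters in 3 (Atp5f1, Atp5j and Atp5j2) and 0, and ZNF143 letters in 3 (Uqcr10, Cox7c and Atp5o) and 2 (Cox5a and Atp5d). Of the 2 lower members with a window, Cox7b had ZNF143 letters, and there was no other match. Cox6a1, 1 of the higher members, is shown with overlapping NRF1 matches on both strands in capitals.
Cox6a1, chr5:115348982-115349131, minus strand: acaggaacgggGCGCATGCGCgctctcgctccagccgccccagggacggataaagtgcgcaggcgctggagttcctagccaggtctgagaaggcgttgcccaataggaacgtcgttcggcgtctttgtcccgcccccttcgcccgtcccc

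Among 13 regulators of these genes 2 were higher, 2 were lower and 9 did not pass, beside 31.8% higher and 20.3% lower of all genes tested. Nrf1 itself was at 59.1, 57.8 and 57.3 CPM in sgControl against 44.5, 45.2 and 48.4 CPM in sgNDUFS4, a log2 fold change of -0.33 (adjusted p = 4.1e-05), and -0.44 after centring. Ppargc1a, the coactivator PGC-1alpha, was higher, from 30.6, 26.3 and 33.6 CPM to 41.0, 38.1 and 45.8 CPM (0.46, adjusted p = 5.6e-05). Both separated without overlap. Lonp1, a mitochondrial protease, was higher by 0.22. Hcfc1, a coregulator that lies in the lowered stretch of chromosome X, was lower by a log2 fold change of -0.61, which was 0.28 after centring, so its direction depends on that setting. Gabpa, a subunit of GABP, had overlapping groups and a log2 fold change of -0.08, and was lower only after centring. Yy1 was at 0.02. The median over the 13 regulators was -0.02, beside 0.06 over all genes tested.

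In complex V the 4 subunits of the peripheral stalk were all higher, while none of the 5 subunits of the F1 head and central stalk was. Over all genes tested, 31.8% were higher and 20.3% lower. Atp5o, which encodes OSCP at the top of the stalk (ENSMUSG00000022956.11, chr16:91925214-91931687, minus strand), was at 519.8, 535 and 536 CPM in sgControl against 657, 659 and 694 CPM in sgNDUFS4 (log2 fold change 0.34, SE 0.0301, adjusted p = 7e-10). Atp5j, the stalk subunit F6, was at 168, 186 and 187 CPM against 229, 249 and 248 CPM (0.43, SE 0.0437, adjusted p = 9.1e-09). Atp5f1, subunit b, was at 337, 351 and 367 CPM against 426, 415 and 436 CPM (0.27, SE 0.0344, adjusted p = 2.5e-07). Atp5h, subunit d, was at 134, 154 and 148 CPM against 172, 188 and 188 CPM (0.33, SE 0.0475, adjusted p = 2.3e-06). For each of the 4, every sgNDUFS4 library was above every sgControl library. They lie on chromosomes 16, 16, 3 and 11.

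The rises of Atp5o, Atp5j and Atp5h were 0.25, 0.30 and 0.26 after regional centring and passed the test, while Atp5f1 was at 0.00. The libraries do not mark strand, per the labels' protocols, and exons of other entries of the annotation cover 47.9% of the exons of Atp5o, 12.7% of those of Atp5j (by Gabpa) and 8.21% of those of Atp5f1. For Atp5o these include a second entry of the same name on the same strand, so that only part of the overlap is with other genes. Outside the stalk such cover is widest at Atpif1 and Uqcrc2, where entries on the other strand cover 33.7% and 19.7% of the exons. In all these genes, reads from the other strand cannot be assigned to a gene. Exons of Atp5h meet no other gene, and 3 pseudogenes of at least 95% identity exist for it.

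In the F1 head, Atp5a1, the alpha subunit, was at 1623, 1581 and 1672 CPM in sgControl against 1634, 1599.9 and 1652 CPM in sgNDUFS4, with a 95% interval of the log2 fold change of -0.05 to 0.06. Atp5b, the catalytic beta subunit and the most abundant member, was at 3424, 3375 and 3534 CPM against 3254, 3297 and 3352 CPM. The groups were apart by little, and the log2 fold change of -0.06 (SE 0.0236, adjusted p = 0.033) lost its call under 7 of 16 other settings, changing sign with quantile normalization. Among the 7 were leaving out sgControl 1 or 3, or sgNDUFS4 1 or 2, which gave between -0.07 and -0.04. Atp5c1, Atp5d and Atp5e of the central stalk had values of 0.02, -0.05 and 0.02, none past the test, and Atp5d became lower with TMM scaling. Summed over the 4 stalk genes, the libraries held 1159, 1227 and 1238 CPM in sgControl against 1484, 1511 and 1566 CPM in sgNDUFS4. Over the 5 F1 genes they held 5610, 5514 and 5781 CPM against 5450, 5467 and 5571 CPM. The stalk genes therefore came to 20.7%, 22.2% and 21.4% of the F1 genes in sgControl and to 27.2%, 27.6% and 28.1% in sgNDUFS4. This share was 21.4% ± 0.791 (SD, n = 3) and 27.7% ± 0.441 (SD, n = 3), and no test was made of it because the groups of genes were formed with their values known.

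**Figure D5:**
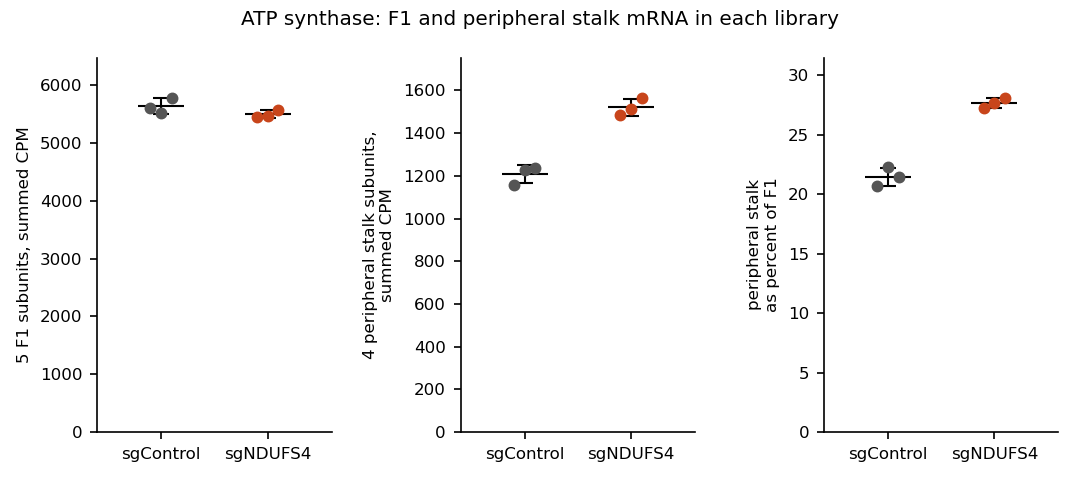
Summed CPM of the 5 F1 subunit genes (left) and of the 4 peripheral stalk genes (middle), and the stalk sum as a percentage of the F1 sum (right), per library, with the mean and SD of 3 libraries per group. The stalk share is 20.7% to 22.2% in sgControl, and 27.2% to 28.1% in sgNDUFS4.

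The membrane part of complex V was mixed. Of the 3 genes that encode identical mature c subunits, Atp5g1 was higher, at 159.6, 161 and 153 CPM against 174, 180.0 and 174 CPM (0.16, adjusted p = 0.0018), a call lost only with DESeq2 among 16 other settings. Atp5g3 was at 389, 388 and 398 CPM in sgControl against 364, 383 and 380.1 CPM in sgNDUFS4. Its groups did not overlap, yet its log2 fold change of -0.06 did not pass (adjusted p = 0.12). Atp5g2 was at 207, 227 and 222 CPM against 214, 207 and 204 CPM (-0.07, adjusted p = 0.14). Both became lower with TMM scaling, and Atp5g2 also without sgControl 1 (-0.11, adjusted p = 0.034). Per kb, Atp5g1, Atp5g2 and Atp5g3 made up 3.83%, 34.2% and 62.0% of the family in sgControl, and 20.2%, 37.8% and 41.9% when a shorter transcript with the same coding sequence was taken for the length. The share of Atp5g1 was 4.43% in sgNDUFS4, or 22.8% with the shorter transcript. Atp5j2, the membrane subunit f, was at 88.8, 103 and 91.7 CPM against 117, 124 and 127 CPM (0.37, SE 0.0520, adjusted p = 1.2e-06), and 0.23 after centring. Its groups did not overlap. Atp5l, subunit g, was higher by 0.15 but lost its call under 6 of 16 other settings, among them without sgControl 1 or sgNDUFS4 2 (each 0.12). Atp5k, subunit e, had the same value without passing. Atpif1, which blocks the enzyme when it runs backwards, was at 64.7, 72.4 and 74.0 CPM against 67.2, 63.7 and 74.2 CPM (-0.04, 95% interval -0.17 to 0.09). Atp5s, coupling factor B, stood at 3.78 to 5.40 CPM, and its 95% interval of -0.35 to 0.38 would hold changes as large as those of the stalk.

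Levels per kb of transcript differed widely between members of the same complex. Atp5b stood highest in sgControl at 1797 CPM per kb, followed by Atp5a1 at 658 and Atp5o at 633. In complex IV Cox4i1 stood highest at 542 and Cox7a2l lowest of the tested genes at 68.6. In complex II Sdhb stood at 336, Sdha at 136, Sdhd at 102 and Sdhc at 34.8. In complex III Cyc1 stood highest at 287 and Uqcrfs1 lowest at 50.3. Over the union of all exons Atp5b stood at 813, Atp5a1 at 518 and Atp5o at 269, in the same order, while Atp5l went from 188 to 15.9, so the order of genes with long alternative exons depends on the length.

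Factors that assemble these complexes were mixed in direction. For complex IV, 7 of 23 were higher, 5 lower and 11 did not pass, beside 31.8% higher and 20.3% lower of all genes tested, and after regional centring 3 were higher and 3 lower. Their median was 0.05 on the log2 scale, beside 0.06 over all genes tested. The medians were 0.20, 0.23 and -0.09 for the factors of complexes II, III and V. Lrpprc, which stabilises mitochondrial mRNAs, was at 152, 159 and 157 CPM in sgControl against 199, 187 and 188 CPM in sgNDUFS4 (0.29, adjusted p = 9.5e-07). Coa3, an assembly factor for the core subunit, was at 42.8, 48.9 and 46.7 CPM against 37.8, 36.5 and 38.2 CPM (-0.29, adjusted p = 0.00068), and -0.53 after centring. The groups of both were apart. Cox16 and the copper chaperone Sco1 followed at -0.39 and 0.32. Surf1 and Cox17 did not pass, at 0.06 and 0.13. For complex II 1 of 4 was higher, Sdhaf3 at 0.46, a call lost without sgNDUFS4 3 (0.36, adjusted p = 0.053). For complex III 2 of 6 were higher, Uqcc2 at 0.21, which did not pass after centring (adjusted p = 0.13), and Uqcc3 at 0.38. Uqcc3 lost its call under 9 of 16 other settings, among them TMM scaling, edgeR, DESeq2 and leaving out sgControl 1 or 2, or sgNDUFS4 1 or 3, which gave between 0.30 and 0.38. For complex V Atpaf2, a chaperone of the alpha subunit, was higher from 40.5, 36.7 and 36.0 CPM to 50.5, 52.9 and 49.4 CPM (0.43, adjusted p = 5.4e-06). Tmem70 and Tmem242, which help to build the c ring, were lower at -0.22 and -0.23, and Atpaf1 did not pass. Tmem242 lost its call without sgNDUFS4 1 (-0.18, adjusted p = 0.051). Of subunits with other names, Ndufa4, now counted with complex IV, was higher by 0.26, and 0.01 after centring. Usmg5 and 2010107E04Rik of complex V were at -0.04 and 0.03 and did not pass.

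The mitochondrially encoded partners of these subunits were all higher, 6 of 6, beside 31.8% of all genes tested, with a median log2 fold change of 0.64. The mRNA of mt-Co1 rose from 10507, 10914 and 11293 CPM to 14794, 15012 and 15557 CPM (0.47, adjusted p = 1.3e-14), and that of mt-Cytb from 5824, 6237 and 6232 CPM to 7705, 7705 and 7539.7 CPM (0.33, adjusted p = 2.3e-11). Over the 16 other settings the log2 fold change of mt-Co1 ran from 0.15 to 0.50, and its call was kept in each. For complex IV the mitochondrial mRNAs summed to 6.70, 6.82 and 7.07 times the CPM of the nuclear subunits in sgControl and to 9.03, 8.98 and 9.12 times in sgNDUFS4. For complex III these ratios were 3.93, 4.20 and 4.17 against 5.03, 4.90 and 4.83. The nuclear sums behind them overlapped in neither complex, at 1596 to 1632 CPM and 1673 to 1740.1 CPM in complex IV and 1483 to 1494 CPM and 1532 to 1574 CPM in complex III. Nearly all of the mitochondrial sum of complex IV was mt-Co1, at 10507 of 10684 CPM in sgControl 1. The 4 mitochondrial genes other than mt-Co1 and mt-Cytb were between 40.9 and 214 CPM, and 1 library, sgNDUFS4 1, stood apart in both genes of complex V. The sgNDUFS4 libraries were at 165, 66.5 and 70.6 CPM for mt-Atp8 and at 210.1, 147 and 148 CPM for mt-Atp6. The call of mt-Atp8 was lost with DESeq2 and without a mean-variance trend. The mitochondrial sum of complex V came to 0.0169, 0.0193 and 0.0216 times the nuclear sum in sgControl, and to 0.0469, 0.0263 and 0.0265 times in sgNDUFS4. How reads that match several places were counted is not known. The ratios of all these complexes are therefore of counted reads and may differ from those of the mRNAs themselves.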

How the data were processed

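Polyadenylated RNA of 3 sgControl and 3 sgNDUFS4 libraries was sequenced in paired ends without strand, per the labels' protocols. The authors deposited CPM values per gene. The submitters' processing notes name HISAT2 and the build GRCm38. Which counter, annotation and filters were used is not given in the sources used here. Values were whole multiples of 1 read in at least 99.98% of cases (tolerance 0.01 reads), which gave the depth. log2(CPM + 0.5) of 11063 rows with a mean of at least 1 CPM was tested with limma 3.58.1 (R 4.3.3, mean-variance trend, two-sided, Benjamini-Hochberg over all rows, threshold 0.05). Fold changes are on that scale and understate those of low genes. edgeR 4.0.16 and DESeq2 1.42.0 on recovered reads, other scalings, pseudocounts and filters, a replicate block and leaving out each library were alternatives. Regional centring subtracted the median of the 50 nearest tested genes. Positions and lengths are from GENCODE M21 and promoters from RefSeq (GRCm38.p6). Lengths are those of the transcript with the longest coding sequence. The fit was tested on simulated data. Genes were named by the call, the size of change and their role. Members and lists were chosen with earlier results of these data known.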

Additional observations from a re-analysis of the deposited data

How the results depend on the processing

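The number of members called lower was 8 with TMM scaling, 8 with edgeR and 8 with DESeq2, and regional centring gave 13 higher and 5 lower. Leaving out 1 library at a time gave between 18 and 20 higher and between 2 and 3 lower. With the replicate block, the counts were 20 higher and 3 lower. Same-numbered libraries deviated together with correlations of 0.056, 0.012 and 0.097. Each sgControl library correlated best with its own number, while sgNDUFS4 2 correlated best with sgControl 1 (0.035). The labels do not say whether a shared number marks a batch, and values this small cannot tell. Under quantile normalization Atp5b came to 0.0027. Regional centring changed the sign of 13 members, 9 of which passed neither before nor after. Genes that passed before or after and changed sign were Sdha (-0.0717), Sdhb (0.167), Cyc1 (0.0729), Atp5a1 (-0.102), the listed factors Cox10 (-0.0393) and Hcfc1 (0.283), and the marker Sox10 (0.11), by subtracting the shift of their neighbours. The other alternatives kept the counts within 1.5 times. In simulated data of this design, 22% of 50 genes changed by 1.25-fold were recovered and 92% of those changed by 1.5-fold. There all genes had the same dispersion, low genes were included and most genes were left unchanged. These shares therefore do not measure the power for the members, of which rises from a log2 fold change of 0.10 were called. Small changes can still be missed with 3 libraries a group.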
